A study of Mus musculus with 6 samples.

Results

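The numbered cadherins, classical and other, and the single, unclustered protocadherins of the mouse genome were followed through a map of H3K9me3. This is the trimethylation of histone H3 that marks heterochromatin. Members were the gene symbols of the deposited table that consist of Cdh or Pcdh followed by a number, which gave 35 of 16587 symbols and 5734 of 202553 regions of the mark. All 35 genes that RefSeq names in this way had at least 1 region. A region carries the symbol the authors assigned to it, so a region of a gene may lie far outside that gene. H3K9me3 was measured in snap-frozen quadriceps femoris by CUT&Tag, in which an antibody to the mark directs a transposase that cuts and tags the DNA beside it. There were 3 libraries from Prr14-WT mice (replicates 3, 4 and 8) and 3 from Prr14-KO mice (replicates 4, 5 and 7). The product of Prr14 sits at the nuclear lamina and tethers heterochromatin to the nuclear edge, and the comparison asks where the mark differs when it is lost. The knockout allele, whether it is confined to muscle, and the age and sex of the mice are not given in the sources used here. The labels do not state that each library is a separate mouse, so p-values measure the spread between these libraries, which may be technical.

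Cadherins are calcium-dependent adhesion proteins that hold like cells together, and their tails bind catenins that link them to the cytoskeleton. Type I cadherins, such as E-cadherin (Cdh1), N-cadherin (Cdh2) and M-cadherin (Cdh15), form strong junctions, while the many type II cadherins and the delta-protocadherins are best known for sorting and wiring neurons. In skeletal muscle, M-cadherin and N-cadherin join satellite cells, the muscle stem cells, to their fibre, and VE-cadherin (Cdh5) joins the endothelial cells of its vessels. Many of the neuronal members are long genes that stand alone in wide stretches of DNA with few other genes.

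The libraries held from 4324444 to 4756133 counts over all regions. Of the tissue markers that were checked, 7 of 9 muscle fibre genes, 3 of 3 satellite cell genes, 3 of 3 endothelial genes, 3 of 3 fibroblast genes, 2 of 3 immune genes and 3 of 4 nerve and Schwann cell genes had a region inside them. A repressive mark does not identify a cell type, so these counts do not check the tissue label. The deleted stretch of Prr14 is likewise not described in the labels, and the mark at that gene was not used as a check of genotype. In a tissue of several cell types, less mark per cell and fewer cells with the mark cannot be told apart. The labels name no spike-in control, and scaling between libraries removes any gain or loss shared by all regions.

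Most of the sequences just before the starts of these genes were free of regions, and a few lay under them. RefSeq promoter sequences of GRCm38.p6 were matched for 22 of the 35 genes in 25 windows, each the 250 bases before an annotated transcript start. The 4 sequences below show a start wholly under a region (Cdh7), a start partly under a region (Cdh8), a CG-rich start with none (Pcdh17) and the start of the muscle stem cell cadherin gene, also with none (Cdh15). They are written 5′ to 3′ on the strand of the gene, with every CG, the base pair step at which mammalian DNA is methylated, in capitals.
Cdh7, chr1:109982650-109982899, plus strand: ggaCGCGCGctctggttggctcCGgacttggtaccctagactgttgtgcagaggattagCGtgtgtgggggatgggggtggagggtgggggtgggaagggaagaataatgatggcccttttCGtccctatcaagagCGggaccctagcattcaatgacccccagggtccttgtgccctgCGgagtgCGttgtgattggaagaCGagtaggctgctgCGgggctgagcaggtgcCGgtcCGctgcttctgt
Cdh8, chr8:99416472-99416721, minus strand: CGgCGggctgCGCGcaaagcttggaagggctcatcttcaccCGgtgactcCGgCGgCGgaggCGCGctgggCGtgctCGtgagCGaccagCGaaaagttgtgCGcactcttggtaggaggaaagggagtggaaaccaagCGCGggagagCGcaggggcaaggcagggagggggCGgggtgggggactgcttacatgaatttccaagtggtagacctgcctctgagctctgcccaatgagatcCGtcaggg
Pcdh17, chr14:84443313-84443562, plus strand: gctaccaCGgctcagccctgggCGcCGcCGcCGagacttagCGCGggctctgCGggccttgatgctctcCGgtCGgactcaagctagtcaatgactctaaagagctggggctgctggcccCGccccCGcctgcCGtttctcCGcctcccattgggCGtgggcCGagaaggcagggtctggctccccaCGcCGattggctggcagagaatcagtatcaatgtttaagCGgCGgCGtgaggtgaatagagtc
Cdh15, chr8:122848124-122848373, plus strand: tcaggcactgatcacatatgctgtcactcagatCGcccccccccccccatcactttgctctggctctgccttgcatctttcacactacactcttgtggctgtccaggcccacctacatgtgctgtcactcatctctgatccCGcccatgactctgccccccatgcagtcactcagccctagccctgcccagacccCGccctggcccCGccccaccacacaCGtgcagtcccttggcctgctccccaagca
These windows hold 13 CG in Cdh7, 20 in Cdh8, 21 in Pcdh17 and 5 in Cdh15. The deposited region at chr1:109982213-109983561 covered all 250 bases of the Cdh7 window, and the region at chr8:99415707-99416605 covered 134 bases of the Cdh8 window. Both windows lie inside the full RefSeq span of their gene, downstream of its outermost start. Among all members, 4 of 22 genes (18.2%) had a window overlapped by a region, namely Cdh7, Cdh8, Cdh18 and Pcdh9, against 11.7% of all genes with a window. The member windows held a median of 10 CG, against 6 over the 32851 windows of all genes, and more than 10 CG stood in 12 of 25 (48.0%), against 35.6%. At least 1 CG was found in 96.0% of member windows and 92.1% of all windows. CG reads the same on both strands, and its presence is a description of the letters only.

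The mark of these genes lay mostly around them and not in them. Of the 5734 regions, 88.0% were intergenic in the authors' annotation, against 68.1% of all regions of the table, and 10.7% were intronic, against 22.6%. Only 24 (0.419%) lay within 1 kb of a start site, against 3.80%. A further 18 were exonic, 17 lay in a 3′ untranslated region and 1 in a 5′ untranslated region. The median distance to the start site was 654.3 kb for members and 86.83 kb for all regions, and 58.3% of member regions were more than 500 kb away, against 14.3%. Members held 52.6% (280 of 532) of all regions of the table that lay from 2000 to 3000 kb from the start site of their gene. By position, 769 regions (13.4%) had their midpoint inside the RefSeq span of their own gene, 414 inside the span of another gene only, and 4551 in no gene. Of the 769, 101 are called intergenic by the authors' annotation. More regions lay upstream of the start (3374, 58.8%) than downstream (2360).

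Single regions resembled those elsewhere in size and depth. Widths had a median of 350 bp (215 to 583 bp between the quartiles), against 318 bp (201 to 546 bp) for the whole table. A member region held a median of 16.8 counts per library, against 15, and the regions together held 47.5 counts per kb per library, against 53.5.

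Region counts per gene ran from 455 to 1. The most were assigned to Cdh8 (455 regions), a type II cadherin of neurons, Pcdh9 (445) and Pcdh7 (409), both delta-1 protocadherins, Pcdh20 (383), Pcdh17 (376), a delta-2 protocadherin, and the type II cadherins Cdh9 (372), Cdh20 (354) and Cdh18 (329). Next came Pcdh10 (277), Cdh7 (257), Cdh2 (247), Cdh10 (244), Cdh6 (238), Cdh11 (231), the cadherin of bone-forming and other mesenchymal cells, and Pcdh18 (193). Pcdh15 (164), Cdh19 (140), a cadherin of Schwann cells, Cdh12 (115) and R-cadherin, Cdh4 (114), complete the 19 members with 100 or more. The share with 100 or more was thus 54.3% of members, against 1.87% of all symbols, and the median was 115 regions per member (quartiles 19 and 267), against 4 (2 and 10).

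The remaining members had fewer than 100 regions. T-cadherin, Cdh13, which is held by a lipid anchor and binds adiponectin, had 68, and Cdh5 had 61. There were 58 for Cdh26, 54 for Pcdh19 and 45 for Pcdh11x, the last 2 on the X chromosome, 26 for Cdh23, 24 for Pcdh8 and 14 for Cdh22. The intestinal cadherin Cdh17 had 10, Pcdh1 had 9, and E-cadherin (Cdh1) and P-cadherin (Cdh3) had 8 each. M-cadherin, Cdh15, and Cdh24 had 2 each, and the kidney cadherin Cdh16 and the endothelial protocadherin Pcdh12 had 1 each.

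**Figure D1:**
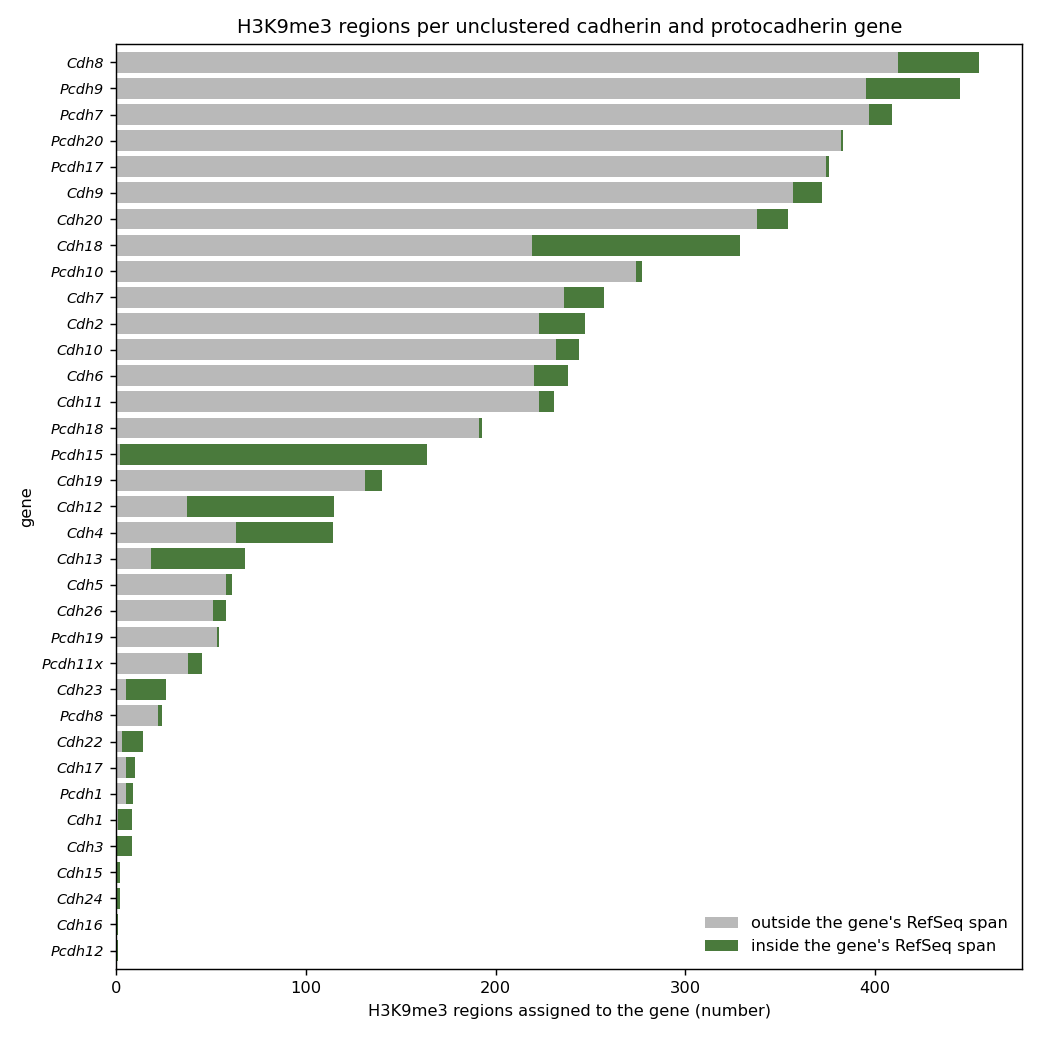
Number of H3K9me3 regions assigned to each of the 35 genes (horizontal axis), split into regions whose midpoint lies inside the RefSeq span of the gene (green) and outside it (grey). Cdh8 leads with 455 regions, of which 43 lie inside the gene, while 162 of the 164 regions of Pcdh15 lie inside it.

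The genes differed in where their regions sat. The span of Pcdh15, which with Cdh23 forms the tip links of hair cells, held 162 of its 164 regions (98.8%), and that of Cdh23 held 21 of 26 (80.8%). Long type II genes were intermediate: 78 of 115 (67.8%) for Cdh12 and 110 of 329 (33.4%) for Cdh18. T-cadherin had 50 of 68 (73.5%) inside and R-cadherin 51 of 114 (44.7%). In Pcdh20, a gene of 6.65 kb, 1 of 383 regions lay inside, and in Pcdh17 it was 2 of 376. All regions of Cdh3 (8), Cdh15 (2), Cdh24 (2), Cdh16 (1) and Pcdh12 (1) lay inside the gene.

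Several members are chromosomal neighbours. Territories, from the first to the last region of a gene, were joined where the next began within 4 Mb, so a stretch can hold gaps without member regions. Protein-coding genes were counted only where they lie wholly inside a stretch. On chromosome 15 the type II genes Cdh6, Cdh9, Cdh10, Cdh12 and Cdh18 formed a stretch of 11.3 Mb (13001292 to 24284655) that holds 7 protein-coding genes in RefSeq. In it 1298 of 1434 regions (90.5%) were assigned to the 5 cadherins. On chromosome 14, Pcdh8, Pcdh17, Pcdh20 and Pcdh9 took 1228 of 1651 regions (74.4%) over 15.2 Mb (79724342 to 94884271), also with 7 protein-coding genes. On chromosome 1, Cdh20, Cdh7 and Cdh19 took 751 of 1056 (71.1%) over 8.99 Mb with 24 such genes. On chromosome 8, Cdh8, Cdh11, Cdh5, Cdh16, Cdh3 and Cdh1 took 764 of 906 (84.3%) over 8.97 Mb with 85 such genes. Pcdh10 and Pcdh18 on chromosome 3 took 470 of 719 (65.4%) over 6.52 Mb with 3 protein-coding genes. Cdh26 and Cdh4 on chromosome 2 took all 172 over 1.43 Mb with 1 protein-coding gene wholly inside. That gene is neither Cdh26 nor Cdh4, which both run past the ends of the stretch. Cdh1 likewise runs past the end on chromosome 8 and is not among the 85. These 6 stretches held from 101 to 127 regions per Mb, against 78.6 per Mb over the autosomes and the X chromosome together. The seventh, of Pcdh1 and Pcdh12 on chromosome 18, took 10 of 11 regions over 0.165 Mb and was sparser, at 66.7 per Mb.

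The density of the mark in wild-type muscle, as CPM (counts scaled to library size) per Mb of territory, was compared over the 26 members with at least 20 regions. It was highest for Cdh23 (979 ± 86.2, SD, n = 3), Cdh19 (825 ± 32.1), Cdh7 (816 ± 43.4), Cdh4 (768 ± 20.1) and Pcdh8 (716 ± 81.6). Cdh23 and Pcdh8 had the shortest territories of the 26, 0.181 and 0.139 Mb, and the territory of Cdh23 is shorter than its gene (393.8 kb). The rank of these genes may therefore depend on the use of territory as divisor. In a group from Cdh18 (651 ± 22.1) through Cdh20 (642 ± 18.6), Cdh9 (640 ± 29.0) and Cdh8 (639 ± 30.8) to Cdh26 (634 ± 29.5), differences were smaller than each SD. Genes were not compared with each other library by library, so their order was not tested. Lower came Pcdh9 (542 ± 14.1), Cdh2 (525 ± 9.06), Pcdh17 (497 ± 14.5), Pcdh7 (495 ± 7.04), Cdh11 (407 ± 3.77), Cdh13 (359 ± 39.0) and Cdh5 (331 ± 51.5), the last 2 again within their spread. The X-linked members Pcdh11x (114 ± 4.64) and Pcdh19 (99.9 ± 2.34) were lowest, on a chromosome that held 72.1 ± 1.06 CPM per Mb against 409 ± 0.34 on the autosomes. Knockout values were 980 ± 121 for Cdh23, 633 ± 34.1 for Cdh8 and 98.6 ± 8.49 for Pcdh19, each within the spread. Cdh4, at 724 ± 17.5, lay lower than in the wild types, and its libraries are given one by one with the gene sums.

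The body of most of these genes was less densely marked than the DNA on either side. For the 20 members with 20 or more regions, a span of at least 20 kb and flanks of at least 100 kb, all regions of the table were counted by position, whatever their symbol, inside the RefSeq span and in the rest of the territory. The body was lower than the flanks in all 6 libraries in 17 of the 20 (85.0%), against 887 of 1365 genes (65.0%) held to the same limits. The body reached a median of 61.5% of the flank density in members and 52.2% over all 1365, so a lower body was not particular to these genes. Among genes with 100 or more regions, the body was lower in all 6 libraries in 13 of 16 members (81.2%). Over all such genes it was lower in 165 of 223 (74.0%). The strongest contrasts on an autosome were in Pcdh7, with 98.4 ± 17.9 CPM per Mb in the body and 544 ± 8.42 in the flanks (18.1%), Cdh10 (197 ± 11.3 and 610 ± 5.66, 32.3%), Cdh20 (250 ± 10.9 and 679 ± 20.9, 36.8%) and Pcdh9 (257 ± 7.05 and 630 ± 16.6, 40.8%). Both X-linked genes also showed it, Pcdh11x at 16.9% and Pcdh19 at 25.9%. In Cdh8 the body stood at 67.5% of its flanks (448 ± 33.4 and 663 ± 35.6).

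R-cadherin was the exception. Its body held 832 ± 14.3 CPM per Mb in wild types and 783 ± 40.0 in knockouts, above its flanks at 666 ± 49.4 and 630 ± 17.8, in all 6 libraries. Cdh7 (790 ± 74.2 in the body and 819 ± 40.9 in the flanks) and Pcdh10 (521 ± 32.9 and 548 ± 10.1) were level within their spread, with the body lower in 5 of 6 libraries. This set of 20 and the comparison of body with flank were chosen after the data were seen, and no test was made of them.

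**Figure D2:**
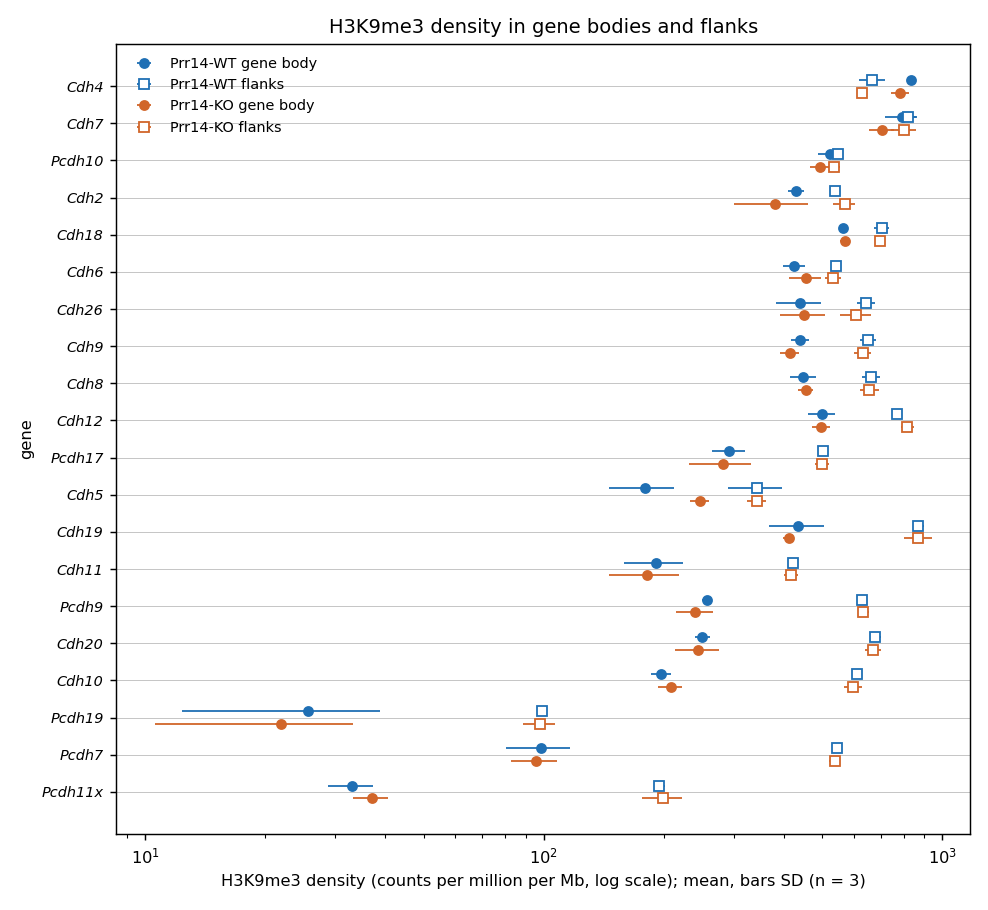
H3K9me3 density in CPM per Mb (log axis) inside the gene (filled circles) and in its flanks (open squares) for 20 members, as the mean of 3 libraries with SD, for Prr14-WT (blue) and Prr14-KO (orange). Genes are ordered by body density as a share of flank density, from Cdh4 at 125% to Pcdh11x at 16.9%, and the genotypes lie side by side in each row.

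Profiles were drawn around 2 of the genes with the most regions. Around Cdh8, the 100 kb bin from 300 to 200 kb upstream of the start held 117 ± 3.13 CPM in wild types and 116 ± 1.66 in knockouts. The first 100 kb of the gene held 53.8 ± 2.19 and 51.7 ± 3.27, and the next 100 kb 37.2 ± 5.01 and 41.2 ± 4.24. The first of these bins, at 117, is the highest of the profile. Wild-type means ran from 41.4 to 117 CPM over the 32 flank bins (median 62.3) and from 37.2 to 56.3 in the 3 bins wholly inside the gene, and 10 flank bins were no higher than the highest of those 3. Around Pcdh7 the last 100 kb before the start held 57.5 ± 4.91 and 55.3 ± 1.33 CPM, the first 100 kb of the gene 21.5 ± 5.29 and 19.7 ± 0.302, and the next 1.22 ± 1.19 and 2.25 ± 0.478. Past the end of Pcdh7, the bin from 600 to 700 kb held 73.5 ± 3.33 and 78.0 ± 3.63. There 1 of 31 flank bins was no higher than the highest of the 4 bins inside the gene.

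**Figure D3:**
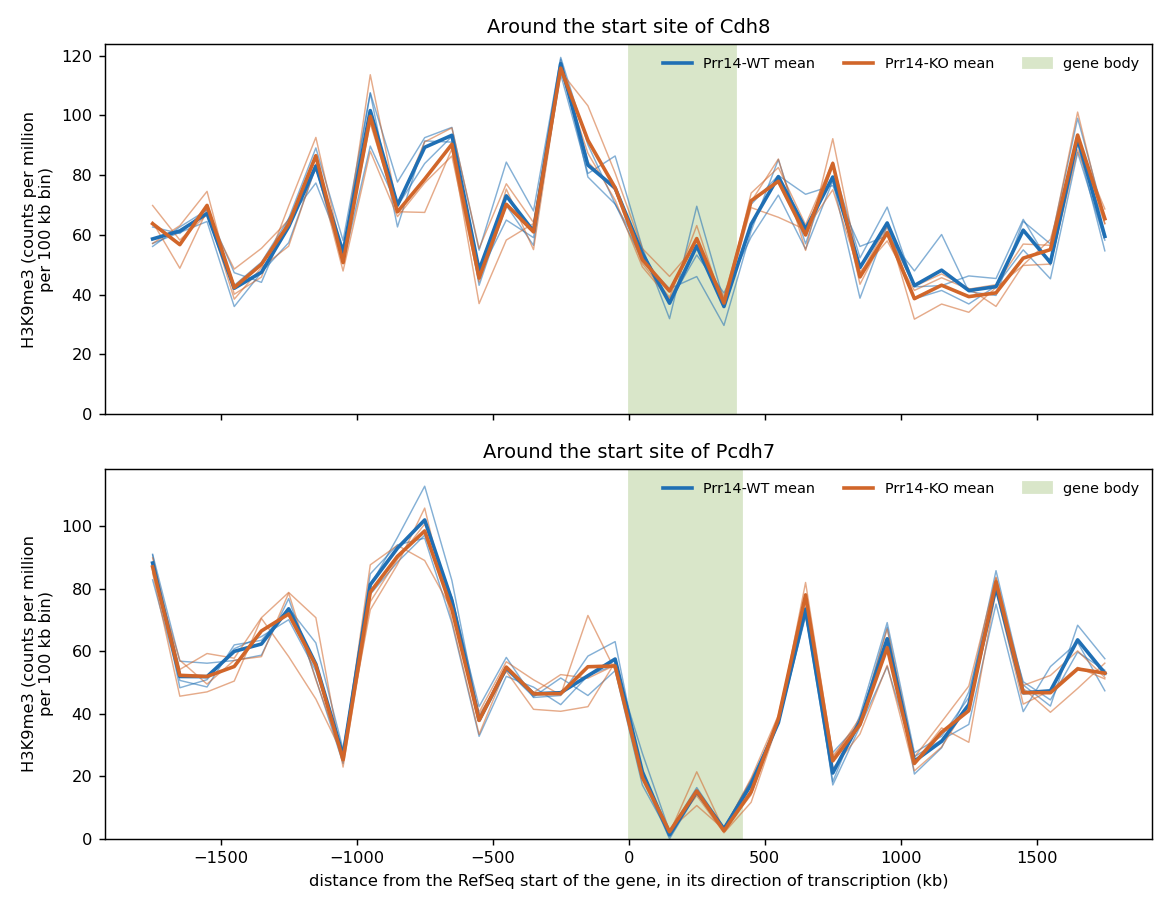
H3K9me3 in 100 kb bins around the start of Cdh8 (top) and Pcdh7 (bottom), in CPM, against the distance from the start in the direction of transcription. Thin lines are the 6 libraries and thick lines the genotype means, and the shaded span is the gene, 393.2 kb for Cdh8 and 417.1 kb for Pcdh7, where the Pcdh7 profile drops to 1.22 CPM in wild types.

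Knockout and wild-type libraries were compared over each gene by summing the counts of all its regions. No sum of these genes passed the test, and with TMM scaling, the scaling of the fit, the genotypes overlapped in each. In Cdh8, scaled gene sums were 2286, 2283 and 2046 CPM (counts scaled to library size) in the wild types, given here and below in the order of replicates 3, 4 and 8. They were 2359, 2031 and 2115 in the knockouts, in the order 4, 5 and 7. The groups overlap, the log2 change (knockout minus wild type) was -0.02, and its 95% interval ran from -0.15 to 0.10. In Pcdh9 the sums were 2084, 1970 and 1978 CPM in the wild types and 2053, 1882 and 2031 in the knockouts, a log2 change of -0.02 (interval -0.14 to 0.11). Pcdh7 had 1963, 1901 and 1873 CPM against 1986, 1793 and 1834, a log2 change of -0.03 (-0.16 to 0.09). Over these 3 genes the intervals ran from -0.16 to 0.11. They do not cover a gain or loss shared by all regions, which scaling removes. The other members with the most regions were as close: the change was -0.02 for Pcdh20 (-0.15 to 0.11), -0.02 for Pcdh17 (-0.15 to 0.11), -0.05 for Cdh9 (-0.18 to 0.08), -0.03 for Cdh20 (-0.16 to 0.10) and -0.01 for Cdh18 (-0.14 to 0.11).

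All 35 gene sums were tested in the edgeR quasi-likelihood fit over 15265 symbols, and 0 passed a Benjamini-Hochberg adjusted p of 0.05, where 0.0393% of all symbols did. Without adjustment 0 members had a p under 0.05, higher or lower, where 2.06% of all symbols were higher and 1.51% lower. Nor did the 3 knockout values lie wholly above or wholly below the 3 wild-type values in any member (all symbols, 4.3% above and 4.19% below). Scaled by library totals alone, 0 members lay wholly above (all symbols, 4.57%) and 1 wholly below (2.86%, all symbols 3.84%), and that 1 was Cdh4. The smallest unadjusted p was 0.0765, and all adjusted p were 1.0. DESeq2 and limma-voom also called 0 members, with 0 at an unadjusted p under 0.05. Here and below, shares over all features are given for edgeR only. The median log2 change was -0.02 over members and 0.00 over all symbols, and 31 of 35 members (88.6%) lay within 0.2 of no change, against 64.8%. Sums over many regions carry less counting error, and the median SE was 0.07 for members and 0.22 over all symbols.

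**Figure D4:**
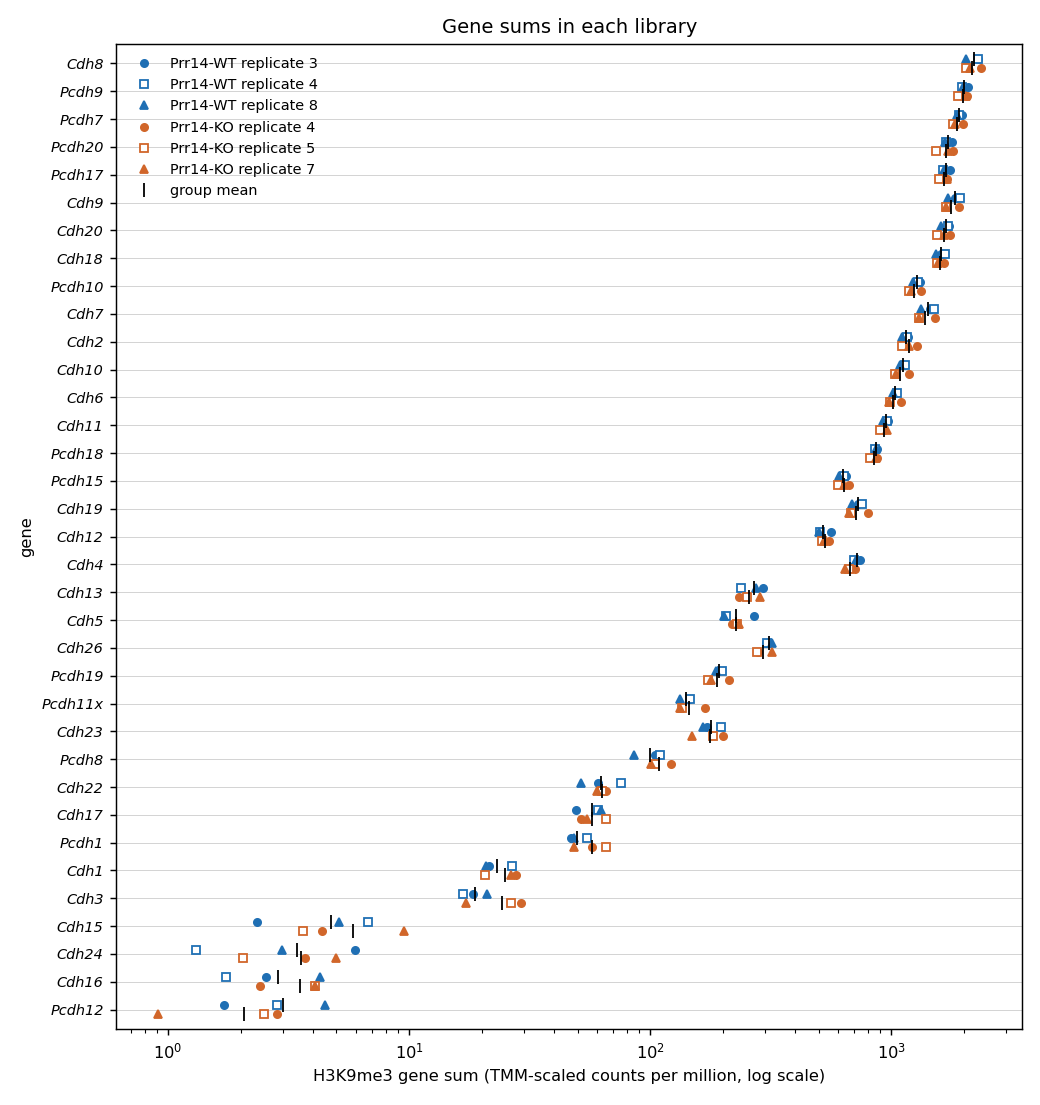
Scaled H3K9me3 gene sums in CPM (log axis) for the 35 genes in each of the 6 libraries, Prr14-WT in blue and Prr14-KO in orange, with a bar at each genotype mean. With TMM scaling the genotypes overlap in every row, and the scatter widens towards genes with few regions such as Pcdh12, with 1.

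Cadherins of muscle and its vessels were read one by one, since the tissue holds the cells that use them. N-cadherin, Cdh2, had 1169, 1162 and 1103 CPM in the wild types and 1275, 1106 and 1181 in the knockouts, a log2 change of 0.05 (interval -0.08 to 0.18). R-cadherin, Cdh4, had 743, 703 and 713 against 706, 670 and 644, a change of -0.10 (-0.23 to 0.04, unadjusted p = 0.163 in edgeR, adjusted p = 1.0). Only knockout replicate 4 reached the range of the wild types there. Scaled by library totals, Cdh4 had 732, 696 and 722 CPM against 688, 682 and 657, and all 3 knockouts lay below the wild types. T-cadherin, Cdh13, had 294, 237 and 274 against 234, 253 and 284, a change of -0.06 (-0.22 to 0.10).

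VE-cadherin, Cdh5, the junction protein of endothelium, had 269, 207 and 202 CPM in the wild types and 219, 229 and 233 in the knockouts, a change of 0.01 (-0.16 to 0.17). Wild-type replicate 3 was the highest of the 6 libraries. M-cadherin, Cdh15, a gene of 19.0 kb, had few counts, and with 2 regions it was not part of the density comparison. Its 2 regions held 11, 31 and 24 counts in the wild types and 20, 16 and 42 in the knockouts, and the log2 change of 0.30 had an interval from -0.62 to 1.22, so a difference of this size was not detectable at this depth.

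Each subfamily of adhesion genes was then read as a group. Over gene sums, the median log2 change was 0.11 for the 5 type I cadherins, -0.02 for the 13 type II cadherins, 0.01 for the 4 delta-1 protocadherins, -0.03 for the 5 delta-2 protocadherins and 0.00 for the 2 tip-link cadherins. The type I median is the value of E-cadherin (Cdh1, 8 regions). P-cadherin (Cdh3, 8 regions) had 18.4, 16.7 and 21.1 CPM in the wild types and 29.0, 26.5 and 17.2 in the knockouts, a log2 change of 0.37 (-0.04 to 0.79, unadjusted p = 0.0765, adjusted p = 1.0). The lowest value of the 35 was that of Pcdh12, -0.52 (-1.84 to 0.79), from 1 region.

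**Figure D5:**
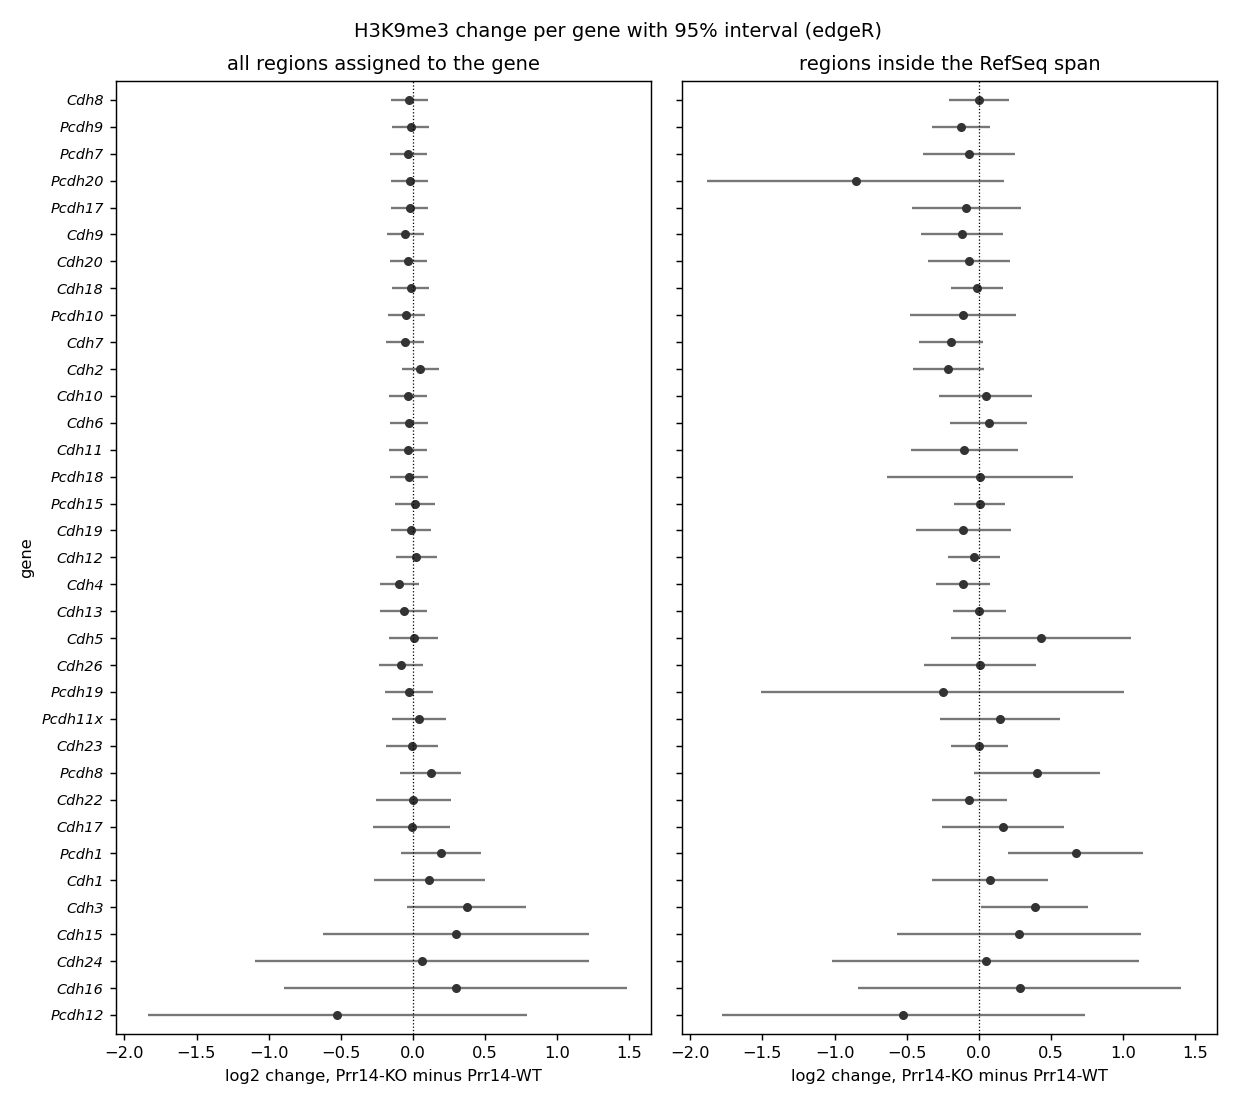
Log2 change of H3K9me3 (Prr14-KO minus Prr14-WT) with its 95% interval from edgeR for the 35 genes, over all regions assigned to a gene (left) and over regions inside its RefSeq span (right). The intervals narrow to about 0.13 on each side for the genes with the most regions, and only Pcdh1 and Cdh3 in the right panel do not cross 0.

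Regions inside the gene bodies were summed in the same way. Of 35 members tested among 17194 genes, 0 passed an adjusted p of 0.05 in edgeR (0.0349% of all genes), and 2 were higher (5.71%) and 0 lower at an unadjusted p under 0.05, where 2.43% and 1.77% of all genes were. DESeq2 and limma-voom called 0, with 1 each at an unadjusted p under 0.05 (no share over all genes was counted). The 2 in edgeR were Pcdh1 and Cdh3. Pcdh1, a delta-1 protocadherin of epithelia, had body sums of 14.3, 13.3 and 10.9 CPM in the wild types and 14.6, 30.7 and 15.8 in the knockouts, a log2 change of 0.67 (interval 0.20 to 1.14, edgeR adjusted p = 0.942). Knockout replicate 5 stood apart from the other 5 libraries, and without it the change was 0.25. Cdh3 had 22.7, 25.5 and 25.1 CPM against 35.8, 36.1 and 23.9, a change of 0.39 (0.01 to 0.76, edgeR adjusted p = 1.0), and knockout replicate 7 lay within the wild-type range.

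For the genes with more regions inside, body sums gave tighter intervals than for Pcdh1 and Cdh3. Those intervals were still wider than for the gene sums of the same genes. The log2 change was 0.00 in Cdh8 (-0.20 to 0.21), -0.12 in Pcdh9 (-0.32 to 0.08), -0.01 in Cdh18 (-0.19 to 0.17), 0.00 in Cdh13 (-0.18 to 0.19) and -0.11 in Cdh4 (-0.30 to 0.08). It was -0.21 in Cdh2 (-0.45 to 0.03), where the sum of all regions had been 0.05. The body of Cdh5 had 9.51, 6.64 and 7.12 CPM in the wild types and 11.3, 9.58 and 10.6 in the knockouts, all 3 above the wild types, with a change of 0.43 (-0.19 to 1.05) and an adjusted p of 1.0 in edgeR. Body sums of all 3 knockouts lay above the wild types in 2 members (5.71%, Cdh5 and Pcdh1), against 4.51% of all genes, and below in 1 (2.86%), against 4.66%. That 1 was Pcdh10, with 32.2, 28.6 and 27.9 CPM against 27.5, 27.8 and 26.8, a log2 change of -0.11. The single region inside Pcdh20 had 5.19, 2.66 and 6.70 CPM against 4.05, 1.78 and 2.20, a log2 change of -0.85 (-1.89 to 0.18, edgeR adjusted p = 1.0), where the sum of all its regions had been -0.02.

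The share of each library's counts that fell in member regions was also compared. It was 2.69%, 2.67% and 2.60% in the wild types (2.66% ± 0.0471, SD, n = 3) and 2.71%, 2.54% and 2.65% in the knockouts (2.63% ± 0.0855). The ranges overlap, and the difference of -0.0245 percentage points gave p = 0.70 in a two-sided exact permutation test over the 20 arrangements, which cannot go below 0.10. The log2 ratio of counts inside to counts outside the gene spans was -2.76 ± 0.0208 in wild types and -2.75 ± 0.0636 in knockouts (difference 0.0118, exact permutation p = 0.80). By distance from the start, sums in 6 classes from 0 to 3000 kb differed by log2 values from -0.02 to 0.02. Those classes were set after the data were seen.

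Libraries of the same genotype also differed. Among the 19 members with 100 or more regions, knockout replicate 4 was the highest library in 11 (57.9%) and knockout replicate 5 the lowest in 11 (57.9%). Over the 310 symbols with 100 or more regions, these libraries held the same places in 43.2% and 44.8%. The coefficient of variation over the 3 libraries ran from 1.05% to 6.56% (median 3.32%) in wild types and from 3.39% to 10.4% (median 5.97%) in knockouts, for these 19.

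Single regions were tested next, 4694 of the 5734 after the filter on low counts, in a fit over 153789 regions. Of these, 0 passed an adjusted p of 0.05 in edgeR, where 0.013% of all regions did, and the smallest adjusted p was 0.998. Without adjustment, 78 (1.66%) had a p under 0.05 and were higher in the knockouts and 74 (1.58%) lower, against 2.07% and 1.78% of all regions. All 3 knockout values lay above the wild types in 219 (4.67%) and below in 246 (5.24%), against 4.7% and 4.91%. DESeq2 and limma-voom called 0, with 152 and 117 at an unadjusted p under 0.05 (no share over all regions was counted). In edgeR the members' shares were thus near those of all regions. In the authors' deposited table, 4926 member regions have an adjusted p, of which 0 are under 0.05, against 13 of 163282 over all regions. The members' log2 fold changes there run from -2.1 to 1.91.

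The regions described next had the smallest p among those whose genotypes did not overlap, up to 6 in each direction, and none passed the adjusted threshold. The intergenic region of Cdh8 at chr8:98982372-98982658, 433.8 kb downstream of the start, held 4, 1 and 2 counts in the wild types and 14, 22 and 10 in the knockouts (log2 change 2.74, edgeR adjusted p = 0.998). Another Cdh8 region, at chr8:98322031-98322487, went the other way with 24, 24 and 18 counts against 6, 2 and 10 (-1.77). The only Cdh2 region among those named was at chr18:17306625-17307089, 497.6 kb upstream, with 6, 9 and 2 counts against 15, 12 and 37 (1.98). Knockout replicate 7 held most of the knockout counts there. An intron region of Cdh23 at chr10:60663376-60663813 had 19, 22 and 27 counts against 50, 48 and 30 (0.98).

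The remaining higher regions were an intergenic region of Pcdh20 at chr14:89908911-89910098 (0.85), an intron region of Pcdh15 at chr10:74236769-74237012 (1.70) and an intron region of Cdh12 at chr15:21258730-21258904 (1.85). On the lower side, Pcdh7 had a region 1946 kb downstream of its start, at chr5:59667771-59668049, with 17, 20 and 32 counts against 5, 8 and 6 (-1.76). Cdh5 had a region 41.1 kb upstream, at chr8:104060182-104060795, with 26, 33 and 22 counts against 11, 3 and 14 (-1.44). The other 3 of the 6 lower regions were assigned to Cdh4. They lay 91.2 kb upstream (chr2:179351055-179351391, log2 change -1.60), and in introns at chr2:179490526-179490707 (-1.36) and chr2:179505000-179505819 (-0.72). The last held 89, 54 and 58 counts in the wild types and 39, 43 and 33 in the knockouts.

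The 3 regions described next were chosen for their high counts, and the genotypes overlapped in each. The region of Cdh23 at chr10:60628867-60630988, in an intron, held 219, 251 and 182 counts in the wild types and 262, 211 and 173 in the knockouts, a log2 change of 0.06 (-0.27 to 0.39). The Cdh8 region at chr8:99663324-99665406, 247.9 kb upstream of the start, had 200, 229 and 228 against 227, 213 and 197, a change of 0.03 (-0.29 to 0.36). The Cdh9 region at chr15:17700735-17702210, 923.4 kb downstream, had 172, 166 and 209 against 189, 177 and 188 (0.10, interval -0.24 to 0.44). These 3 held the most counts of all member regions and were 1476 to 2122 bp wide.

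At start sites, 24 regions of 17 genes lay within 1 kb, and 21 were tested. None had an unadjusted p under 0.05 in edgeR, and the log2 changes ran from -0.86 to 0.98, 9 above and 12 below 0. All 3 knockout values lay below the wild types in 4 of the 21 (19.0%) and above in 0, against 4.91% and 4.7% of all regions. The 4 belong to Pcdh7 (17, 27 and 16 counts against 6, 12 and 13), Cdh18 (18, 21 and 21 against 12, 15 and 10), Cdh11 (26, 34 and 38 against 23, 22 and 18) and Cdh3 (18, 15 and 21 against 12, 11 and 9). The intervals of all 4 changes include 0, and this count was made after the data were seen. Cdh3, Cdh18 and Pcdh7 each have another tested start-site region, and there the genotypes overlapped. That of Cdh3 went the other way, with 13, 7 and 8 counts against 26, 10 and 17 (log2 change 0.98). The change was 0.08 in that of Cdh18 and -0.54 in that of Pcdh7. The region that covers the printed Cdh7 sequence had the most counts of the start-site regions, 130, 112 and 97 in the wild types and 78, 102 and 97 in the knockouts. Its log2 change was -0.21 (-0.60 to 0.19), and knockout replicate 4 was the lowest library. The region that reaches into the printed Cdh8 sequence had 54, 34 and 46 counts against 42, 30 and 47, a change of -0.09 (-0.65 to 0.47). At Pcdh9 the tested start-site region, at chr14:93886194-93887155, had 33, 36 and 44 counts against 20, 20 and 32 (-0.57, interval -1.23 to 0.10). At Pcdh8 the order was the other way, with 40, 29 and 12 against 35, 37 and 42 (0.58, interval -0.07 to 1.22). The intervals of both include 0.

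Bins of 100 kb were used to look for broad changes. Of 519 bins with a member region, 516 were tested among 24143, and 0 passed an adjusted p of 0.05 in edgeR (0.058% of all bins). An unadjusted p under 0.05 was found for 9 higher (1.74%) and 9 lower (1.74%), against 2.13% and 1.74%. DESeq2 and limma-voom called 0, with 9 and 18 at an unadjusted p under 0.05 (no share over all bins was counted). The median log2 change was -0.02 for member bins and -0.001 for all bins. Over these bins, 83.9% lay within 0.2 of no change, against 72.8%. Member bins also had a smaller median SE, 0.129 against 0.167 over all bins, so the 2 shares are not on an equal footing.

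All 3 knockout values lay above the wild types in 13 member bins (2.52%) and below in 23 (4.46%), against 4.24% and 4.52% of all bins. The 4 bins with the smallest p among these were taken in each direction. Some bins with an unadjusted p under 0.05 in edgeR are left out by that rule, 10 of them with genotypes that overlap. Among those left out are a pair of adjoining Cdh2 bins, from 17.2 to 17.3 Mb (log2 change 0.28) and from 17.3 to 17.4 Mb (0.30) on chromosome 18, named after their values were seen. On chromosome 2, the bin from 178.7 to 178.8 Mb, beside Cdh26, had 82.0, 87.5 and 99.6 CPM in the wild types and 76.6, 63.3 and 72.5 in the knockouts (log2 change -0.34, edgeR adjusted p = 1.0). The bin from 179.3 to 179.4 Mb, before Cdh4, had 75.05, 65.6 and 76.9 against 61.2, 61.2 and 59.4 (-0.26). The bin from 44.4 to 44.5 Mb on chromosome 3, in the territory of Pcdh10, had 56.5, 56.5 and 51.2 against 40.2, 47.2 and 41.1 (-0.35). The territory of Cdh20 held bins in both directions, 0.28 at 104.3 to 104.4 Mb and -0.23 at 102.9 to 103.0 Mb on chromosome 1. The lower of these had an unadjusted p of 0.0536 in edgeR, and its interval (-0.46 to 0.004) includes 0. The other higher bins belonged to Pcdh15 (0.31), Cdh5 (0.44) and Pcdh9 (0.27).

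The partners of the cadherins inside the cell were read the same way. Of 14 catenins and plaque proteins, 12 had regions and were tested as gene sums, 0 passed in either direction, and the median log2 change was -0.04, against 0.00 over all symbols. The neural catenin genes, which like the neuronal cadherins are long, had the most regions: Ctnnd2 (207 regions, 951 ± 41.4 CPM in wild types and 932 ± 67.7 in knockouts, log2 change -0.03) and Ctnna2 (80 regions, 323 ± 18.1 and 318 ± 27.7, -0.02). Beta-catenin, Ctnnb1, had 30 regions and a change of -0.05 (-0.22 to 0.12). Of 27 other genes of the cadherin superfamily, such as desmosomal cadherins, Fat and Celsr genes, 25 had regions, 0 passed, and the median was -0.02. Dsc3 (237 regions, 1183 ± 12.8 and 1160 ± 124 CPM, -0.03) and Fat3 (141 regions, -0.02) had the most. Fat1 had 368, 373 and 359 CPM in the wild types and 338, 341 and 338 in the knockouts, a log2 change of -0.11 (-0.26 to 0.03, edgeR adjusted p = 1.0).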

How the data were processed

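H3K9me3 CUT&Tag libraries of 3 Prr14-WT and 3 Prr14-KO quadriceps, grouped by the genotype label, were read from a single table of 202553 regions. Per the submitters' processing notes the tools were DESeq2 1.6.3, MACS2, BWA, Trimmomatic, bedtools and deepTools, with the build GRCm38. Their settings, and whether regions were called on pooled libraries, are not given in the sources used here. Per the file headers, each library has whole-number counts per region, deposited unscaled, and a normalised signal, which the authors derived from the counts. The authors' log2 fold change and adjusted p-value per region were copied as deposited, and their score per region was only summarised. Per the file headers, symbols, annotation classes and distances are the authors', and coordinates appear as in that table. All per-sample columns were mapped to a library.

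Counts were tested in R 4.3.3 with edgeR 4.0.16 (filterByExpr with minimum count 10 and minimum total 15, TMM, robust quasi-likelihood fit, Benjamini-Hochberg over all features, threshold 0.05) for regions, gene sums by symbol, sums of regions with their midpoint in a RefSeq span (GRCm38.p6), and 100 kb bins. Intervals cover 95%. CPM of gene sums, body sums, regions and bins tested are TMM-scaled, and densities and profiles use library totals. The scripts were tested on simulated data. Alternatives were RLE factors, library totals, DESeq2 1.42.0, limma-voom (limma 3.58.1), other filters, no robust weighting, an adjusted p of 0.10, other bins and region sets, and leaving out each library.

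Named were the 8 members with the most regions, those with an unadjusted p under 0.05, muscle and vessel members (Cdh2, Cdh4, Cdh13, Cdh15, Cdh5), up to 6 regions and 4 bins per direction by smallest p without overlap, the 3 regions with the most counts and regions within 1 kb of a start. Other members' values serve as description. The members, lists and tests were chosen with earlier results of these data known. The 4 Mb limit for joining territories, distance classes and the body and flank comparison were chosen after the data were seen.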

Additional observations from a re-analysis of the deposited data

How the results depend on the processing

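The count of members past an adjusted p of 0.05 was 0 at each of the 4 levels under every alternative run, including DESeq2, limma-voom, an adjusted p of 0.10, bins of 50 kb, 250 kb and 1 Mb, and each library left out. Without knockout replicate 4, bins at an unadjusted p under 0.05 in edgeR numbered 35 in place of 18, and gene sums 3 in place of 0. Gene sums numbered 2 without knockout replicate 7. They numbered 1 each from promoter and genic regions and from regions of 500 bp or more. The shares over all features were not counted in these fits, so a rise is not read as particular to the members. The difference in share ran from -0.0633 to 0.0213 percentage points, and that of the inside-to-outside ratio from -0.00677 to 0.0486, as each library was left out. No paired analysis was possible because the genotypes share only replicate number 4.

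For 53 results (gene sums and body sums of 15 genes, 15 regions and 8 bins), 666 of 708 values kept their sign and 42 changed it, none of them past the threshold (smallest adjusted p 0.221, for the Pcdh1 body without knockout replicate 4). The cause was not tested. All 8 bins, and all of these regions but those with the most counts, were named because their genotypes did not overlap. Leaving out a library or rescaling was therefore unlikely to change their sign, and their kept signs are no check of stability. The sign changed for the Cdh8 body (-0.0032) and the Cdh13 body (-0.002) without a filter, for the Cdh18 body with library totals (0.0136), for Cdh18 (0.0033) and Cdh5 (-0.24) gene sums from regions of 500 bp or more, and for the Cdh2 gene sum from promoter and genic regions (-0.23). The Pcdh20 gene sum from promoter and genic regions was -0.86. Start-site regions were not rerun under the alternatives. With each library left out, gene sums ran from -0.0967 to 0.0209 for Cdh8, -0.0464 to 0.0227 for Pcdh9, -0.082 to 0.0407 for Pcdh20, -0.0509 to 0.0155 for Pcdh17, -0.0834 to 0.0118 for Cdh20, -0.0529 to 0.0207 for Cdh18, -0.0088 to 0.101 for Cdh2, -0.143 to 0.0049 for Cdh13, -0.241 to 0.643 for Cdh15 and -0.0706 to 0.148 for Cdh5. Body sums ran from -0.088 to 0.0652 for Cdh8, -0.162 to 0.0587 for Pcdh7, -0.14 to 0.0084 for Pcdh17, -0.0552 to 0.0163 for Cdh18, -0.0505 to 0.0649 for Cdh13 and -0.234 to 0.632 for Cdh15. The Cdh23 region with the most counts ran from -0.0713 to 0.187 and the Cdh8 one from -0.045 to 0.0733. A member region had a median SE of 0.445 (log2), so small differences at single regions were not detectable.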
